A study of Homo sapiens with 4 samples.

Results

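The genes described here are 10 human cytokine genes, namely *IL1A*, *IL1B*, *IL33*, *IL18*, *IL6*, *IL11*, *LIF*, *CSF1*, *IL7* and *IL15*. They were chosen by name, as the table entries whose symbol was 1 of these 10, and transcript counts were summed per gene identifier. All 10 were found among the 57820 genes of the table. They were read in SK-N-SH cells, a human neuroblastoma line, by RNA-seq in 4 libraries. The 2 vector control libraries came from cells given an empty lentivirus vector with no insert, and the 2 OE libraries came from cells given a lentivirus in which the EF1a promoter drives the long noncoding RNA *RP5-998N21.4*. The control libraries are titled WT, whereas their treatment label names the empty vector, and that label was followed. The labels do not say that libraries of a group came from separate cultures, so the p-values measure only the spread between these libraries, which may be technical. The comparison asked which genes differed in level between OE and vector control cells.

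Interleukin-1 alpha, interleukin-1 beta, IL-33 and IL-18 belong to the IL1 family, whose members bind paired receptors and signal through MYD88 and IRAK kinases to NF-kappaB. IL-1 beta and IL-18 are made as inactive precursors that caspase-1 cuts in the inflammasome, whereas IL-1 alpha and IL-33 are active in full-length form and are held in the nucleus until cells are damaged. IL-6, IL-11 and LIF share the receptor chain gp130, encoded by *IL6ST*, and signal through JAK kinases and STAT3. CSF1 drives the growth of macrophages and microglia, IL-7 supports lymphocyte precursors, and IL-15 supports natural killer and memory T cells.

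Library totals ranged from 23785164 to 28307591 counts. *RP5-998N21.4* had 32 and 33 counts in the controls against 2407 and 2808 in the OE libraries, which matches the labels. Of 8 neuroblastoma marker genes, 7 were tested and all 7 were higher in both OE libraries than in both vector control libraries, as were 27.8% of all genes. The summed level of those markers was 361 and 431 CPM (counts scaled to a common library size) in the controls and 674 and 641 CPM in OE. *TH*, tyrosine hydroxylase, had 0 counts in all 4 libraries. Markers of blood cells, the main source of several of these cytokines in tissue, were low. The monocyte and macrophage markers summed to 12.2 and 12.0 CPM in the controls and 1.87 and 6.57 CPM in OE, with 4 of 10 (*LYZ*, *AIF1*, *FCGR3A* and *MARCO*) at 0 in all libraries. *CD68* made up most of the sum in 3 libraries, with 240, 237 and 126 counts, and had 2 counts in OE 1. Lymphocyte markers summed to 2.45, 2.0, 4.5 and 4.91 CPM, with 4 of 7 at 0, among them *CD3D* and *CD3E*. The higher sum in OE came from *CD8A*, named after its values were seen, with 26 and 29 counts in the controls and 101 and 124 in OE (log2 fold change 1.82, adjusted p = 0.0689). The 3 endothelial markers found of 4 had 0 counts, 5 epithelial markers summed to between 62.8 and 72.2 CPM, and 5 markers of the HEK293T packaging cell summed to between 0.429 and 2.39 CPM. The part of the marker differences in the cytokine values was not tested.

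Among the 10 genes, *IL1B*, *IL33* and *IL11* were lower in both OE libraries than in both vector control libraries, with changes of −39.05%, −63.62% and −46.91%. *IL7* was slightly higher in both OE libraries. In RNA from whole cultures, fewer cells of a type and less RNA per cell cannot be told apart. *IL1A*, *IL6*, *LIF*, *CSF1* and *IL15* overlapped between the groups, and *IL18* was at or near 0 counts. The study's limits for a call, which it applied with DESeq2, were 0.01 on the adjusted p and 0.5 on the size of the log2 fold change. At these, edgeR's quasi-likelihood test called 0 of the 9 genes tested, as it did 0.0% of all 20528 genes. Even *RP5-998N21.4*, at a log2 fold change of 6.11 (adjusted p = 0.0109), was not called. Having 0 calls at these limits therefore does not show that a gene was unchanged. At an adjusted p under 0.05 the same test also called 0 of the 9, against 0.594% of all genes, 0.312% lower and 0.283% higher. At an unadjusted p under 0.05, 3 of the 9 were lower and 0 were higher, where 10.7% of all genes were lower and 10.1% higher. Separation of the libraries alone was common: 4 of the 9 genes separated, 3 below and 1 above, where 55.4% of all genes did. Of all genes, 27.6% had both OE libraries below both controls and 27.8% had both above. The median log2 fold change of the 9 genes was 0.03, beside 0.01 for all genes tested, and −0.22 to 0.082 with 1 library left out. In 2 libraries against 2, an exact two-sided permutation test cannot give a p below 0.333 for a single gene.

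DESeq2 on the same genes, with the same thresholds, called 8.77% of all genes, 4.42% as lower in OE. It called 2 of the 9 cytokine genes, both lower, *IL1B* with an adjusted p of 2.27e-10 and *IL33* with an adjusted p of 0.00114. *IL11* had an adjusted p of 0.0212 in that test and was not called. At an adjusted p under 0.05 DESeq2 called these 3 as lower, where 11.5% of all genes were called, 5.65% as lower. With a robust dispersion estimate, edgeR called 0 of the 9 at the study's limits (0.248% of all genes). At an adjusted p under 0.05 it called 1, *IL1B* (adjusted p = 0.0409), against 2.8% of all genes.

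**Figure D1:**
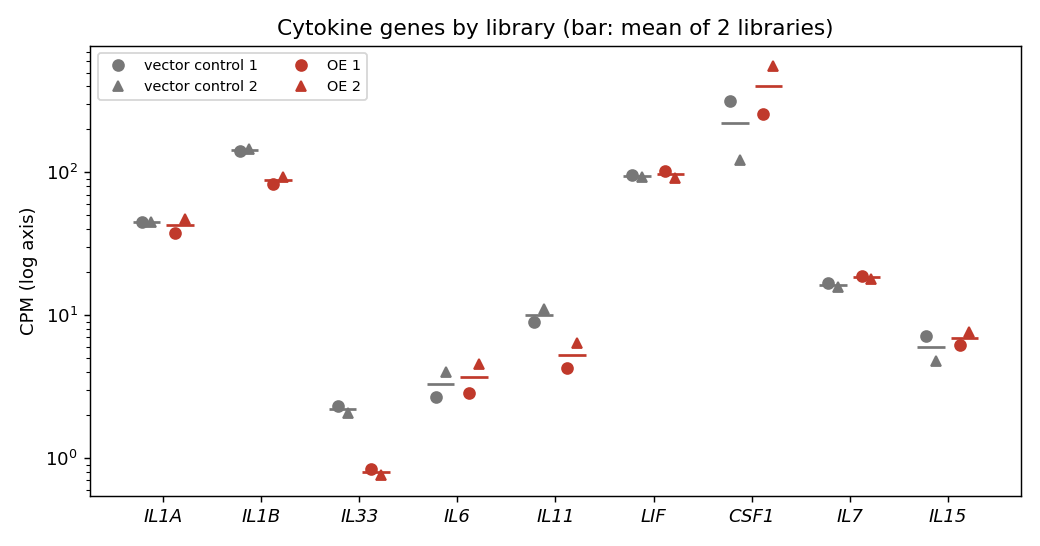
Level of each tested cytokine gene in CPM on a log axis, with vector control libraries in grey, OE libraries in red, and a bar at the mean of the 2 libraries of each group. The red points of *IL1B*, *IL33* and *IL11* lie below the grey points, those of *IL7* lie above them, and those of the other 5 genes interleave with them.

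*IL1B* encodes IL-1 beta, the secreted IL1 family cytokine that drives fever and local inflammation. The gene (ENSG00000125538.7) lies on the minus strand at chr2:113587328-113594393 in hg19. It had 3308 and 3435 counts in the controls and 2066 and 2700 counts in the OE libraries. These are 142.1 and 146.2 CPM against 82.33 and 93.34 CPM. Both OE libraries were well below both controls, and the gap between groups was larger than the gap within either. The group means were 144.1 ± 2.92 CPM and 87.84 ± 7.79 CPM (SD, n = 2 libraries each). The log2 fold change was −0.71 (standard error 0.0977, 95% interval −0.99 to −0.44, unadjusted p = 0.00238, adjusted p = 0.0808 by edgeR). Nearly all of its counts, 3300, 3435, 2053 and 2676 in the order vector control 1, vector control 2, OE 1 and OE 2, sat on 1 transcript, ENST00000263341.2.

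*IL1A* encodes IL-1 alpha, which binds the same receptor as IL-1 beta. The gene (ENSG00000115008.5) is at chr2:113531502-113542070 on the minus strand, 45258 bases from *IL1B*. It had 1042 and 1052 counts (44.75 and 44.77 CPM) in the controls and 950 and 1370 counts (37.86 and 47.36 CPM) in OE. The control libraries lay between the OE libraries, so the groups overlapped. Its log2 fold change was −0.07 (standard error 0.145, 95% interval −0.48 to 0.34, adjusted p = 0.823). A difference as large as the study's limit lay outside this interval. The neighbouring genes therefore differed in ratio: *IL1B* had 3.17 and 3.27 counts per *IL1A* count in the controls and 2.17 and 1.97 in the OE libraries. This ratio was lower in both OE libraries than in both controls.

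*IL33* encodes IL-33, an alarmin that acts on the receptor ST2. The gene (ENSG00000137033.7) is at chr9:6215786-6257983 on the plus strand. It was a low-count gene, with 54 and 49 counts (2.319 and 2.085 CPM) in the controls and 21 and 22 counts (0.8369 and 0.7606 CPM) in OE. The libraries of each group were close together and the groups did not overlap. The means were 2.202 ± 0.165 and 0.7987 ± 0.054 CPM, and the log2 fold change was −1.46 (standard error 0.2475, 95% interval −2.16 to −0.75, unadjusted p = 0.00506, adjusted p = 0.101). It was the largest difference in size among the 9 genes tested.

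*IL18* encodes IL-18, which induces interferon gamma in lymphocytes. The gene (ENSG00000150782.7, chr11:112013976-112034819, minus strand) had 0, 5, 0 and 0 counts in vector control 1, vector control 2, OE 1 and OE 2. The 5 counts were on a transcript annotated as a retained intron. It did not pass the filter on low counts and was not tested. A count of 0 allows up to 3 counts, which is 0.129 CPM in vector control 1, 0.12 CPM in OE 1 and 0.104 CPM in OE 2, for counting error only.

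*IL11* encodes IL-11, a gp130 cytokine of fibrosis and bone turnover. The gene (ENSG00000095752.2) is at chr19:55875750-55881831 on the minus strand. It had 208 and 261 counts (8.933 and 11.11 CPM) in the controls and 107 and 184 counts (4.264 and 6.361 CPM) in OE. Both OE libraries were below both controls, but the libraries within each group were further apart than for *IL1B* or *IL33*. The means were 10.02 ± 1.54 and 5.313 ± 1.48 CPM, and the log2 fold change was −0.91 (standard error 0.2738, 95% interval −1.69 to −0.13, unadjusted p = 0.0319, adjusted p = 0.199). All counts lay on 1 of its 4 listed transcripts.

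*IL6* encodes IL-6, which induces the acute phase response. The gene (ENSG00000136244.7, chr7:22765503-22771621, plus strand) had 62 and 94 counts (2.663 and 4.001 CPM) in the controls and 72 and 131 counts (2.869 and 4.529 CPM) in OE. The groups overlapped, and the libraries within each group differed by more than the group means. Its log2 fold change was 0.15 with a wide 95% interval of −0.87 to 1.18 (adjusted p = 0.849). Its sign turned with its most abundant transcript alone (−0.07). Exons of *IL6-AS1* and *STEAP1B* overlap the gene on the opposite strand. Use of strand in the counting is not given in the sources used here, so reads of these genes cannot be told apart.

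*LIF*, which encodes leukemia inhibitory factor, a gp130 cytokine of stem cells and neurons, had the smallest difference of the 9 genes tested. The gene (ENSG00000128342.4, chr22:30636442-30642748, minus strand) had 2237 and 2194 counts (96.07 and 93.37 CPM) in the controls and 2547 and 2658 counts (101.5 and 91.89 CPM) in OE. The OE libraries lay on either side of the controls. Its log2 fold change was 0.03 (standard error 0.0916, 95% interval −0.23 to 0.29, adjusted p = 0.888), so a change of the size the study's threshold asks for lay outside the interval. *LIF-AS1* and *LIF-AS2* overlap its exons on the opposite strand.

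*CSF1*, encoding macrophage colony-stimulating factor, had the widest spread. The gene (ENSG00000184371.9, chr1:110452864-110473614, plus strand) had 7407 and 2862 counts (318.1 and 121.8 CPM) in the controls and 6462 and 15966 counts (257.5 and 552.0 CPM) in OE. The groups overlapped, and its log2 fold change of 0.88 had a standard error of 0.6425 and a 95% interval of −0.95 to 2.71 (adjusted p = 0.506). The counts moved between transcripts as well. ENST00000344188.5 held 7308, 2775 and 6354 counts in vector control 1, vector control 2 and OE 1 but 0 in OE 2. ENST00000329608.6 held 15822 counts in OE 2 and 0 in the other 3 libraries. With its most abundant transcript alone the log2 fold change turned to −0.77, so no direction is given for *CSF1*.

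*IL7* (ENSG00000104432.8, chr8:79587978-79717758, minus strand) had 395 and 373 counts (16.96 and 15.87 CPM) in the controls and 475 and 518 counts (18.93 and 17.91 CPM) in OE. Both OE libraries were above both controls by a margin similar to the gap between replicates. The means were 16.42 ± 0.770 and 18.42 ± 0.722 CPM, and the log2 fold change was 0.17 (standard error 0.1149, 95% interval −0.16 to 0.49, adjusted p = 0.483). *ZC2HC1A* overlaps its exons on the opposite strand.

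*IL15* (ENSG00000164136.12, chr4:142557736-142655140, plus strand) had 167 and 112 counts (7.172 and 4.767 CPM) in the controls and 156 and 221 counts (6.217 and 7.64 CPM) in OE. The groups overlapped, and its log2 fold change was 0.22 (standard error 0.2763, 95% interval −0.57 to 1.00, adjusted p = 0.709). As with *CSF1*, its transcripts differed between libraries of 1 group. ENST00000477265.1 held 64, 0, 0 and 149 counts, and ENST00000296545.7 held 89, 84, 130 and 59 counts, in the order vector control 1, vector control 2, OE 1 and OE 2. With ENST00000296545.7, its most abundant transcript, alone the log2 fold change was −0.04.

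**Figure D2:**
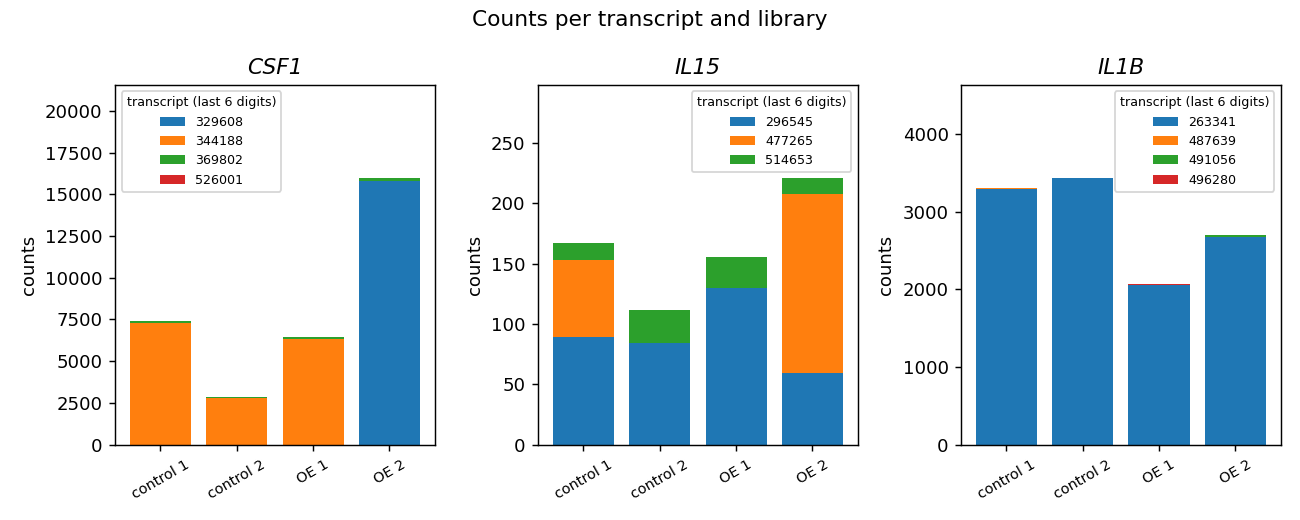
Stacked counts of the transcripts of *CSF1*, *IL15* and *IL1B* in each library, with 1 colour per transcript and the last 6 digits of its identifier in the legend. For *CSF1* 1 transcript holds nearly all counts of 3 libraries and another nearly all counts of OE 2, whereas *IL1B* keeps the same main transcript in all 4 libraries.

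In all, 23 of the 63 transcripts listed for the 10 genes had any counts. Levels of different genes were compared only after each transcript's count was divided by its length, as a TPM value, the length-scaled share of all transcripts. *IL1B* had the highest mean in the vector control, 191.4 TPM, followed by *LIF* (48.92 TPM), *IL1A* (44.36 TPM), *IL7* (16.49 TPM), *IL11* (8.411 TPM), *IL15* (4.74 TPM), *IL6* (3.57 TPM), *IL33* (1.868 TPM) and *IL18* (0.1237 TPM). The ranges of neighbours in this order, as computed, did not overlap in the 2 vector control libraries. In OE, *IL1B* stayed first at 121.9 ± 12.56 TPM, and *LIF* (52.07 TPM) and *IL1A* (44.13 TPM) followed. The OE ranges of *IL11*, *IL15* and *IL6* overlapped, from 2.418 to 5.851 TPM, so these 3 had no order there. *CSF1* was left out, because its main transcript in 3 libraries has no length in the annotation used, and 1 of the *IL6* transcripts also has none. That transcript held 16.13% and 19.15% of the *IL6* counts in the controls and is not in the *IL6* values, so the order of *IL15* and *IL6* is not settled.

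**Figure D3:**
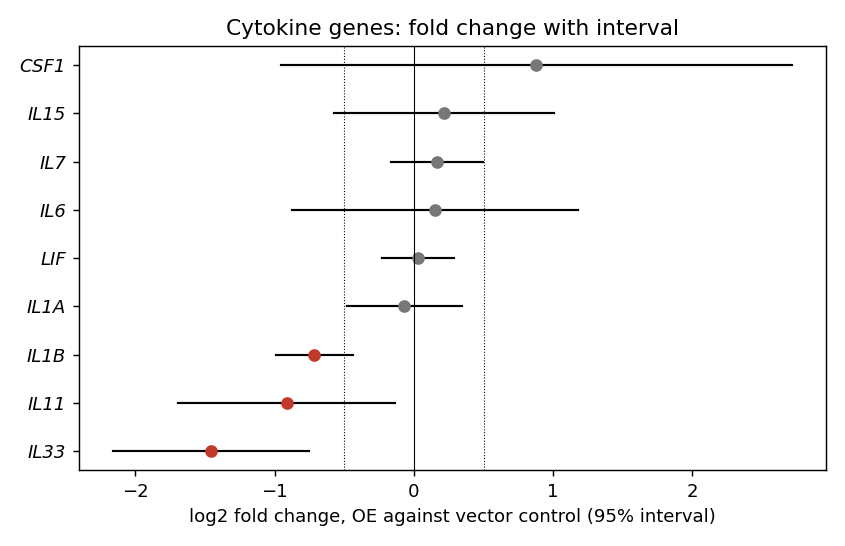
Log2 fold change of OE against vector control for the 9 tested genes, with 95% intervals as lines, dotted lines at an absolute value of 0.5, and red points where the unadjusted p is under 0.05. The intervals of *IL1B*, *IL33* and *IL11* stay below 0, those of *LIF*, *IL1A* and *IL7* lie within 0.5 of 0 on both sides, and that of *CSF1* runs from −0.95 to 2.71.

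Promoter windows were looked at for the genes that were lower in OE, with *IL1A* beside them as the neighbour of *IL1B* that overlapped between groups. The sequences are from RefSeq (GRCh38.p14, a later build than the hg19 of the counts) and run from 250 bases before to 50 bases after the start of transcription. The table held 5 of the 10 genes. Each is written 5′ to 3′ on the gene's strand, with capitals for a match to 1 of 4 motifs on either strand, AP-1 (TGANTCA), STAT (TTCNNNGAA), C/EBP (TTGCNNAA) and NF-kappaB.
*IL1B*, chr2:112836730-112837029, minus strand: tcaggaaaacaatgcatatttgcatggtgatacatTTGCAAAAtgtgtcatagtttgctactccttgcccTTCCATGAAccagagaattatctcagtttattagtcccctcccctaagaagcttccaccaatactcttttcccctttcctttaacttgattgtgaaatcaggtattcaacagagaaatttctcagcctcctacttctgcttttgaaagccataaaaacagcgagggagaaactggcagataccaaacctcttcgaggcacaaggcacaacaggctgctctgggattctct
*IL33*, the second of 2 entries, chr9:6215557-6215856, plus strand: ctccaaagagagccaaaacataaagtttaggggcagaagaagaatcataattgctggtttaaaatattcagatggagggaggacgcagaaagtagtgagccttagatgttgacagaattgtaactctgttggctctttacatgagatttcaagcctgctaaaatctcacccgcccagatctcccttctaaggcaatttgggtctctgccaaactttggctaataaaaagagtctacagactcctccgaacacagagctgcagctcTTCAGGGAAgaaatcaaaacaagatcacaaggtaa
*IL11*, chr19:55370414-55370713, minus strand: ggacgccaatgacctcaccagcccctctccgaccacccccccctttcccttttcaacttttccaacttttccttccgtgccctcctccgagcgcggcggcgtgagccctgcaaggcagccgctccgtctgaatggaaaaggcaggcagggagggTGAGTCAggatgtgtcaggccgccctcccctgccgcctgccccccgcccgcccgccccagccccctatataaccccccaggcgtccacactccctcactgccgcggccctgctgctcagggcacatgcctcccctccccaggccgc
*IL1A*, the first of 2 entries, chr2:112784444-112784743, minus strand: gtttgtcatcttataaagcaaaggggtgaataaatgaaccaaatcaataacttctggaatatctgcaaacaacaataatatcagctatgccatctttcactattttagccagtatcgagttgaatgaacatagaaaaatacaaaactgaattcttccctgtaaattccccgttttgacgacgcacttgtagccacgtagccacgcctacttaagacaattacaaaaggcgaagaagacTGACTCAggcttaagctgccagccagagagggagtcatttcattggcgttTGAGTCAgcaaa

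No motif of the 4 was in the windows of all 3 genes that were lower in OE. With the start of transcription as base 1, the *IL1B* window held a C/EBP match from −215 to −208 and a STAT match from −180 to −172. The *IL33* window held a STAT match from 16 to 24, and the first *IL33* entry held no match. *IL11* had an AP-1 match from −96 to −90, and *IL1A* had 2, from −12 to −6 and from 39 to 45. Counted from the start of the second *IL1A* entry, the same 2 matches lay from −105 to −99 and from −55 to −49. The *IL6* window, not printed, held a C/EBP match from −155 to −148 and an NF-kappaB match, GGGATTTTCC, from −73 to −64. Of 35116 promoters of the same length, 7.71% held the AP-1 motif, 7.66% the STAT motif, 10.5% the C/EBP motif and 1.91% the NF-kappaB motif. A match describes these letters and is not evidence of a bound site.

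The pathways of the 10 cytokines were followed in 11 lists of 113 other genes, of which 85 passed the filter. At an adjusted p under 0.05, 2 were lower in OE (*CXCL1* and *CCL2*) and 0 were higher, beside 0.312% and 0.283% of all genes. Both kept their direction but missed this threshold with a replicate block (adjusted p = 0.296 for each), with any 1 library left out (0.11 to 0.141) and with the most abundant transcript alone (0.0605 for *CXCL1* and 0.0546 for *CCL2*). *CXCL1* also missed it with upper-quartile factors (adjusted p = 0.0504) and with a minimum of 1 count (0.0629). At an unadjusted p under 0.05, 22 were lower and 8 higher, 30 of 85 beside 20.8% of all genes. Of all genes, 10.7% were lower and 10.1% higher at that p. The median log2 fold change of the 85 was −0.12, beside 0.01 for all genes tested. DESeq2 called 16 of the 85 at the study's thresholds, 5 higher and 11 lower, beside 8.77% of all genes called and 4.42% called as lower.

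Upstream of the receptors, 8 IL1 family ligands and antagonists other than the 10 cytokine genes were listed. Of these, 6 had any counts and 1 was tested, *IL18BP*, which encodes the secreted protein that binds IL-18. It had 481 and 707 counts in the controls and 1183 and 819 in OE (log2 fold change 0.57, adjusted p = 0.429). Leaving out 1 library moved this value to between 0.16 without OE 1 and 0.89 without OE 2. For processing, 9 of 12 inflammasome and cytokine processing genes were tested, of which 4 were lower and 1 higher at an unadjusted p under 0.05 (10.7% and 10.1% of all genes), with a median of −0.44. *CAPN2*, a subunit of the calpain protease that can cut the IL-1 alpha precursor, was at 74.51 and 57.07 CPM in the controls and 177.3 and 168.3 CPM in OE (log2 fold change 1.39, adjusted p = 0.0707). *CAPN1*, the other calpain of the list, was at −0.67 (adjusted p = 0.089). *TMED10*, which takes part in secretion of IL-1 beta without a leader peptide, was at −0.34 (adjusted p = 0.133).

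Of 8 receptor genes for IL-1, IL-18 and IL-33, 4 had 0 counts in every library, among them *IL1RL1*, the receptor of IL-33, and *IL18RAP*, a chain of the IL-18 receptor, both named after their values were seen. Such a count allows up to 3 counts, or 0.104 to 0.129 CPM by library. The 3 genes tested had a median log2 fold change of 0.05. Of them, 1 was lower and 0 were higher at an unadjusted p under 0.05 (10.7% and 10.1% of all genes). *IL1R1*, the signalling receptor of IL-1 alpha and IL-1 beta, was detected, at 38.99 and 38.01 CPM in the controls and 24.27 and 20.95 CPM in OE. The groups did not overlap, and its log2 fold change was −0.77 (unadjusted p = 0.00384, adjusted p = 0.0937). With its most abundant transcript alone it was −0.51 (adjusted p = 0.59). Its coreceptor *IL1RAP* (0.05) and the inhibitory receptor *SIGIRR* (0.21) overlapped between groups, and both took either sign with 1 library left out. All 12 genes of the MYD88 branch were tested, with 4 lower and 1 higher at an unadjusted p under 0.05 (10.7% and 10.1% of all genes) and a median of −0.25. *IRAK1*, a kinase recruited by MYD88, had 204.4 and 231.9 CPM in the controls and 70.02 and 39.03 CPM in OE (a change of −75.0%, adjusted p = 0.0987). *IRAK2* was at −0.35 (adjusted p = 0.133) and *MAP3K7*, the kinase TAK1, at 0.24 (adjusted p = 0.188).

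The IL1-responsive list held 12 genes, 11 of them tested, and 7 were lower and 0 higher at an unadjusted p under 0.05 (10.7% and 10.1% of all genes). Its median log2 fold change was −0.30, and −0.58 without OE 1. *CXCL1*, a neutrophil chemokine, had 7345 and 7748 counts in the controls and 4593 and 5354 in OE, and its mean went from 322.6 ± 10.1 to 184.1 ± 1.45 CPM (log2 fold change −0.81, standard error 0.0605, adjusted p = 0.0481). *CCL2*, a monocyte chemokine, was at 554.1 ± 6.04 CPM in the controls and 345.4 ± 0.848 CPM in OE (log2 fold change −0.68, standard error 0.0473, adjusted p = 0.044). *ZC3H12A*, an RNase that degrades cytokine transcripts, was at −0.99 (adjusted p = 0.0615). *CXCL8*, chosen for mention after its values were seen because it is a classical IL-1 target, was at 0.01 (adjusted p = 0.879).

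For the IL6-type cytokines, 5 of 7 other ligands were tested, with 1 higher and 0 lower at an unadjusted p under 0.05 (10.1% and 10.7% of all genes). Their median was 0.07, and −0.034 to 0.11 with 1 library left out. *EBI3*, a subunit of IL-27 and IL-35, was at 5.798 and 6.384 CPM in the controls and 17.02 and 17.87 CPM in OE. The libraries within each group were close, and the log2 fold change reached 1.52 (standard error 0.133, adjusted p = 0.0591). Its IL-27 partner *IL27*, also named after its values were seen, had 0 counts in all 4 libraries. *CNTF* was at −0.49 (adjusted p = 0.396, and between −0.73 and −0.28 with 1 library left out) and *CLCF1* at 0.07 (adjusted p = 0.777, and −0.0086 to 0.14 with 1 library left out). All 7 receptor genes were tested, with 1 higher and 1 lower at an unadjusted p under 0.05 (10.1% and 10.7% of all genes). Their median was 0.14, and 0.055 to 0.23 with 1 library left out. *CNTFR*, which binds ciliary neurotrophic factor, was at 1.01 (adjusted p = 0.101), *OSMR*, the oncostatin M receptor, at −0.41 (adjusted p = 0.0784), and *IL11RA*, the receptor of IL-11, at −0.59 (adjusted p = 0.344, with −0.22 without vector control 1 and −0.89 without vector control 2).

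The JAK-STAT3 branch and its inhibitors had 9 of 10 genes tested, 1 lower and 0 higher at an unadjusted p under 0.05 (10.7% and 10.1% of all genes). Their median was −0.13, and −0.32 to −0.052 with 1 library left out. The lower gene was *SOCS3*, a feedback inhibitor induced by STAT3, at −0.36 (adjusted p = 0.134), while *JAK1* was at −0.24 and *SOCS1* at −0.46 (−0.63 to −0.28 with 1 library left out). Of 12 STAT3 target genes 9 were tested, with 4 lower and 1 higher at an unadjusted p under 0.05 (10.7% and 10.1% of all genes) and a median of −0.23. *SOCS3* is in both lists and is 1 of these 4 lower genes. *CEBPD*, a transcription factor of the acute phase response, was at 181.7 and 206.5 CPM in the controls and 100.6 and 99.57 CPM in OE (log2 fold change −0.96, adjusted p = 0.0631). *JUNB* was at −0.41 (adjusted p = 0.122) and *MCL1* at −0.23 (adjusted p = 0.118). The gene that was higher, *SERPINA3*, named after its values were seen, had 0 counts in both vector control libraries and 24 and 21 in OE, at least 6.56-fold higher against a limit of 3 counts per control library. With it set at that bound the list's median was also −0.23.

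Of the 17 receptors and relatives of *CSF1*, *IL7* and *IL15*, 11 were tested, with 1 higher and 1 lower at an unadjusted p under 0.05 (10.1% and 10.7% of all genes). Their median was −0.06, and −0.076 to 0.084 with 1 library left out. *IL7R*, the receptor of IL-7, was at 38.44 and 31.71 CPM in the controls and 17.69 and 20.29 CPM in OE (log2 fold change −0.88, adjusted p = 0.107). *IL15RA*, which presents IL-15 to neighbouring cells, was at 4.338 and 6.001 CPM against 8.967 and 9.058 CPM (0.80, adjusted p = 0.177, and 1.53 with its most abundant transcript, adjusted p = 0.842). Both receptor genes separated by group. *STAT5A*, a transcription factor downstream of both, was at −0.32 (adjusted p = 0.359, and −0.45 to −0.20 with 1 library left out). All 9 genes for decay and translation of cytokine transcripts were tested, with 2 higher and 0 lower at an unadjusted p under 0.05 (10.1% and 10.7% of all genes). Their median was 0.03, and −0.011 to 0.20 with 1 library left out. *ZFP36L2* (log2 fold change 0.43, adjusted p = 0.0707) and *ZFP36L1* (0.50, adjusted p = 0.238, and 0.32 without OE 1), which encode proteins that bind AU-rich elements and promote decay, were those 2, and *RC3H1*, which encodes roquin, was at −0.33 (−0.48 to −0.20 with 1 library left out).

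**Figure D4:**
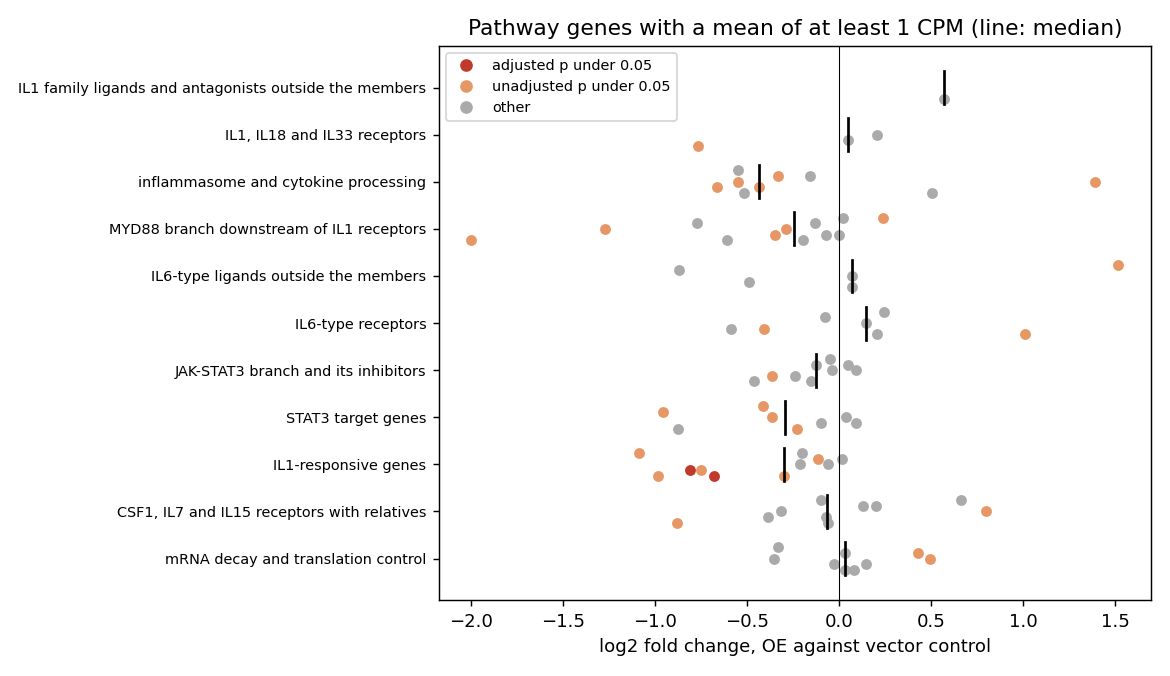
Log2 fold change of OE against vector control for the pathway genes averaging 1 CPM or more, 1 line per list and 1 point per gene, with a black bar at the median of the points drawn. *CXCL1* and *CCL2* in the IL1-responsive list are the only points with an adjusted p under 0.05, and *IRAK1*, at a change of −75.0%, lies furthest to the left.

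The 3 lower cytokine genes kept their sign whichever library was left out. The log2 fold change of *IL1B* then ranged from −0.81 to −0.63, that of *IL33* from −1.54 to −1.39 and that of *IL11* from −1.23 to −0.65. *IL7* stayed between 0.11 and 0.21. *CSF1* ranged from 0.23 without OE 2 to 1.73 without vector control 1. *IL1A*, *IL6*, *LIF* and *IL15* each took both signs, so no direction is given for them.

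**Figure D5:**
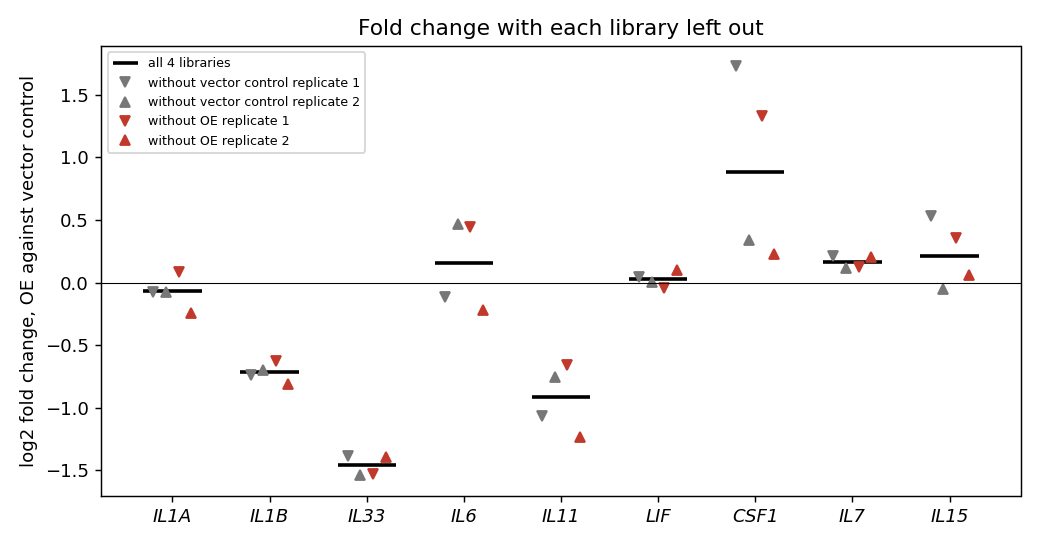
Log2 fold change of each tested cytokine gene with all 4 libraries (black bar) and after leaving out 1 library at a time (triangles, grey for a vector control and red for an OE library). *IL1B*, *IL33* and *IL11* stay below 0 in every case, and the triangles of *CSF1* and *IL6* spread most.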

How the data were processed

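RNA-seq counts per transcript of 4 libraries were used. Per the paper's methods and the labels, the authors trimmed the reads and mapped them to hg19, and they deposited whole-number counts with no normalization. The submitters' processing notes name Bowtie2 2.0.4, Picard 2.21.6, StringTie 2.1.6 and DESeq2. The counting tool, annotation release and use of strand are not given in the sources used here.

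Counts were summed per gene identifier. Genes kept by filterByExpr (20528) were scaled by TMM (factors 0.976 to 1.02). The test was the quasi-likelihood one of edgeR 4.0.16 in R 4.3.3, 2 libraries against 2 without covariates, two-sided, with Benjamini-Hochberg adjustment over all genes tested. CPM values carry the TMM factors, and values are means ± SD. Alternatives were other scalings and filters, DESeq2 1.42.0, limma 3.58.1 (voom), robust dispersion, a replicate block, the most abundant transcript alone and each library left out. The scripts were tested on simulated data with 200 changed genes. This checked the code only, because the simulated spread between libraries was smaller than the estimate for these data. Coordinates and transcript lengths are from GENCODE v44 lifted to GRCh37 (hg19), and 93.19% to 93.69% of counts lay on transcripts with a length.

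The text names all 10 cytokine genes, *RP5-998N21.4*, and from each list every gene with an adjusted p under 0.05 and the 3 with the smallest unadjusted p, genes averaging under 1 CPM left out. It also names the 3 genes closest in pattern to the cytokine gene with the smallest p. Members and lists were chosen with earlier results of these data known. Limits for 0 counts cover counting error alone, because no molecular identifiers were used. Values of some single marker genes are not reported here.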

Additional observations from a re-analysis of the deposited data

How the results depend on the processing

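The number of genes called over all genes tested (0 at the study's limits) depended on the test. It was 1800 with DESeq2 on the same genes, 1722 with DESeq2 on genes with at least 10 counts, 51 with robust dispersion, 9 with a minimum of 1 count, 1 with the most abundant transcript and 122 at an adjusted p under 0.05. The study, which used DESeq2, also reported 1722 genes. Both DESeq2 runs made here called 2 of the cytokine genes, *IL1B* and *IL33*. Over 14 alternatives, adjusted p ranged from 2.27e-10 to 0.296 for *IL1B*, from 0.00114 to 0.302 for *IL33* and from 0.0212 to 0.412 for *IL11*, with no change of sign. With the most abundant transcript alone the log2 fold change turned to −0.069 for *IL6*, −0.77 for *CSF1* and −0.036 for *IL15*.

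With a library left out, the sign turned for *IL1A* (−0.24 to 0.082), *IL6* (−0.22 to 0.47), *LIF* (−0.043 to 0.10), *IL15* (−0.055 to 0.53), *IL1RAP* (−0.030 to 0.12), *SIGIRR* (−0.028 to 0.41) and *CLCF1* (−0.0086 to 0.14). A group left with 1 library was assumed to vary like the other. List medians then ranged from −0.44 to −0.30 for inflammasome and processing genes and −0.28 to −0.18 for the MYD88 branch. For the receptors of IL-1, IL-18 and IL-33 the median took both signs (−0.030 to 0.12). It was −0.034 to 0.11 for IL6-type ligands, 0.055 to 0.23 for IL6-type receptors and −0.32 to −0.052 for the JAK-STAT3 branch. IL1-responsive genes ranged from −0.58 to −0.27, and receptors and relatives of *CSF1*, *IL7* and *IL15* from −0.076 to 0.084. Decay genes ranged from −0.011 to 0.20 and the cytokine genes from −0.22 to 0.082, the last chosen after seeing the data.

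Libraries with the same replicate number did not deviate together (r = −0.022 across genes, which are not independent replicates). This value cannot show whether they shared a culture or a batch, and the labels do not say. With a replicate block 0 genes were called, and *IL1B* was at −0.72 (adjusted p = 0.296). The dispersion estimate rests on 2 libraries a group, and genes of few counts, such as *IL33* and *IL6*, carry the widest counting error.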

Other observations

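Across the 4 libraries, the genes whose pattern was most like that of *IL1B*, the cytokine gene with the smallest p, were *BARD1*, *C1orf115* and *SURF2*. The root mean square distance of their centred log2 CPM to that of *IL1B* was 0.00551, 0.0127 and 0.0138, among 17600 genes compared over 4 libraries. *BARD1*, the partner of BRCA1 in DNA repair, was at 24.14 and 24.94 CPM in the controls and 13.91 and 15.73 CPM in OE, with a log2 fold change of −0.73 (adjusted p = 0.101 in edgeR's test). *C1orf115* had a log2 fold change of −0.72 and *SURF2* of −0.70. Each gene had only 4 values, and the closeness is given as a description.

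The colony-stimulating factors beside *CSF1*, chosen for mention after their values were seen, overlapped between the groups. *CSF2*, which encodes GM-CSF, had 1883 and 2380 counts in the controls and 2191 and 2533 in OE. *CSF3*, which encodes G-CSF, had 120 and 85 counts in the controls and 30 and 206 in OE, so its OE libraries lay on either side of the controls.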
